A study of Canis lupus familiaris with 2 samples.

Results

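The IL6-family cytokine and JAK-STAT3 genes were followed in J3T-1 and J3T-2, 2 subclones of a shared canine glioma parent whose invasive and angiogenic behaviour differs. The 10 genes were picked for their place in the pathway, with earlier results of these arrays known: the ligands IL6, LIF and CLCF1, the receptor chains IL6ST, LIFR and OSMR, the kinases JAK1 and JAK2, the transcription factor STAT3 and the feedback inhibitor SOCS3. All 10 were on the array, through 20 probe sets out of 29254 that carried exactly 1 gene symbol, and these 29254 probe sets stood for 15115 genes. Each subclone was grown in DMEM with 10% fetal bovine serum and hybridized to 1 Affymetrix canine array, and the labels name no treatment. Subclone, culture, RNA preparation and array cannot be told apart in this design. No test between the subclones and no replicate error was possible with 1 array each, and every value below is a single measurement. The comparison asks which of these transcripts differ between the subclones in culture.

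Cytokines of the IL6 family act through receptor complexes that share the signalling chain gp130, which IL6ST encodes. IL6 reaches gp130 through its own receptor IL6R, LIF and CLCF1 bring in the LIF receptor chain, and oncostatin M uses OSMR or LIFR. The chains carry JAK kinases, which phosphorylate STAT3, and phosphorylated STAT3 enters the nucleus and switches on genes that include its own inhibitor SOCS3. In glioma this pathway has been studied in relation to growth, invasion and the mesenchymal state. The array measured transcripts, so it holds no reading of STAT3 phosphorylation or of secreted cytokine.

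Values are MAS5 signals, an intensity per probe set on a linear scale. A signal at or under the median of its array (19.0 in J3T-1 and 22.0 in J3T-2, called the floor here) was treated as not distinguished from background. A gene was represented by its brightest probe set and counted as measured when that set exceeded the floor of at least 1 array, which held for 9433 genes. With 1 array per subclone, genes were called by size alone: a gene called towards a subclone had at least 2-fold the signal there. The median log2 ratio of J3T-2 over J3T-1 over all measured genes was 0.17, so a gene with a log2 ratio of 0 lay slightly on the J3T-1 side of the array as a whole. Bacterial BioB hybridization controls, spiked in at low concentration, read 90.6 to 163.2 in J3T-1 and 110.1 to 180.9 in J3T-2 over 9 probe sets. Of the glioma and glial markers, SOX2, SLC1A3 and NES were above the floor on both arrays, while GFAP, S100B and AQP4 were under it on both. The 8 leukocyte markers stayed at a signal of at most 20.1 in J3T-1 and 23.0 in J3T-2, with PTPRC at 5.6 and 7.5 and CD14 at 3.9 and 14.0. Of these 8, 3 were just over a floor: CD68 on both arrays, and CD3E and TREM2 in J3T-1 only. The 4 epithelial markers were all under the floor.

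Among the measured members, the transcription factor differed most between the subclones. STAT3 transcript was 5.18-fold higher in J3T-2, and LIFR transcript was 2.84-fold higher in J3T-1. The other receptor chains IL6ST and OSMR and the kinases JAK1 and JAK2 lay within 2-fold, each with the lower signal in J3T-2 in its brightest probe set. IL6, LIF and SOCS3 were under the floor on both arrays, and CLCF1 rose just over it in J3T-1 only. Of the 7 measured members, 1 was called higher in J3T-2, as were 7.28% of all measured genes, and 1 was called higher in J3T-1, as were 3.49% of them. With so few members these counts do not set the group apart from the array. The median log2 ratio of the measured members was -0.47 (-0.48 over the 6 above both floors), against 0.17 for all measured genes. RNA came from whole cultures, so fewer cells that express a gene and less RNA per cell cannot be told apart.

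**Figure D1:**
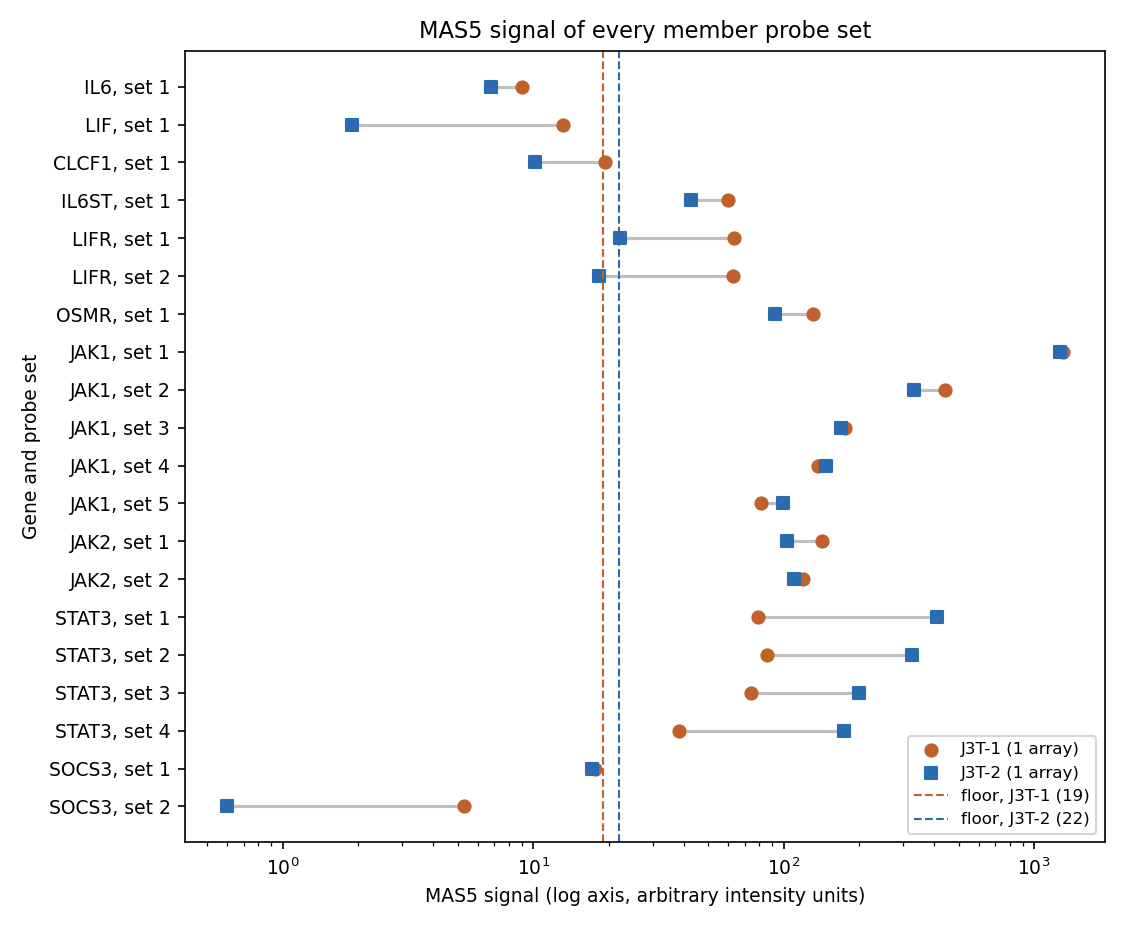
MAS5 signal (log axis) of each of the 20 member probe sets in J3T-1 (circles) and J3T-2 (squares), 1 array each, with the floors of 19.0 and 22.0 as dashed lines. The 4 STAT3 sets lie to the right in J3T-2, both LIFR sets lie to the right in J3T-1, and the sets of IL6, LIF and SOCS3 stay left of both floors.

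The ligand transcripts gave little or no signal in either subclone. IL6, an inflammatory cytokine, read 9.0 in J3T-1 and 6.8 in J3T-2 on its only probe set. LIF, leukaemia inhibitory factor, read 13.1 and 1.9, and both values were under the floor. CLCF1, a cardiotrophin-like ligand of the CNTF receptor complex, read 19.4 in J3T-1 and 10.2 in J3T-2. The J3T-1 value of CLCF1 was 1.02 times its floor and lay under the floor of the other array, so no fold can be given. All 3 ligand signals were lower in J3T-2, but at this level they are bounds and their order was not measured. Among 7 further ligands of the family, 5 had a probe set, and IL11 was the only measured gene among them, at 22.2 in J3T-1 and, under the floor, 19.2 in J3T-2. OSM (8.9 and 1.0), CTF1, IL27 and EBI3 were under the floor on both arrays.

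The receptor chains were detected, with the lower signal in J3T-2 in each case. LIFR, the chain that binds LIF and pairs with gp130, read 63.3 in J3T-1 and 22.3 in J3T-2 on its brighter probe set, a log2 ratio of -1.51. Its other probe set read 62.9 and 18.4, which is at least 2.86-fold because the J3T-2 value was under the floor. The J3T-1 readings of LIFR were over 3 times the floor and the J3T-2 readings were at it, so the 2.84-fold difference rests on a J3T-2 value 1.01 times the floor. Under the higher floor at the 75th percentile, LIFR was no longer measured.

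IL6ST, the shared chain, read 60.1 in J3T-1 and 42.6 in J3T-2, a log2 ratio of -0.50 (1.41-fold). OSMR, the oncostatin M receptor chain, read 131.2 and 92.4, a log2 ratio of -0.51 (1.42-fold). Taken against the median of all measured genes, the log2 differences were -0.66 for IL6ST and -0.67 for OSMR. Each of these genes has 1 probe set on the array, so no spread between probe sets supports either value. Over all 4580 genes that had several sets over both floors, the SD of the log2 ratio between sets of the same gene was 0.26. The sets share the same 2 arrays, so this SD holds no spread between cultures. The IL6ST and OSMR differences were about as large as each other and larger than that SD. It leaves out variation between arrays and RNA preparations, so it cannot show whether they exceed measurement error.

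No ligand-binding chain outside the members was called. IL6R, which confers IL6 binding, read 25 in J3T-1 and 21.1 in J3T-2, the latter under the floor, so its difference is only bounded, at least 1.14-fold. CNTFR, the CNTF-binding chain, read 32.1 and 23.1, IL11RA read 27.5 and 26.9, and IL27RA read 144.9 and 137.9. Of 5 such genes with a probe set, 4 were measured and 0 were called, with a median log2 ratio of -0.13. With 7.28% of all measured genes called towards J3T-2 and 3.49% towards J3T-1, 0 of 4 does not set these chains apart. In the brightest probe set the signals of all 4 were lower in J3T-2, while the second set of IL27RA read 54.9 and 61.9.

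The kinases lay within 2-fold on every probe set. JAK1, which docks on gp130 and its partner chains, read 1303.3 in J3T-1 and 1269.2 in J3T-2 on its brightest probe set, a log2 ratio of -0.04. Its other 4 probe sets gave log2 ratios of -0.41, -0.05, 0.11 and 0.30. The 5 JAK1 sets thus fell on both sides of 0, with an SD of 0.26 that matched the spread of probe sets across the array. JAK2, a kinase shared with many other cytokine receptors, read 142.1 and 102.8 on its brighter set (log2 ratio -0.47). Its other set read 119.8 and 109.7 (-0.13). Both JAK2 sets were lower in J3T-2, by 1.38-fold and 1.09-fold.

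STAT3 was higher in J3T-2 on each of its 4 probe sets. The brightest read 78.8 in J3T-1 and 408.4 in J3T-2, a log2 ratio of 2.37. A further set read 85.6 and 325.0 (3.80-fold), another 74.0 and 199.1 (2.69-fold), and the dimmest 38.2 and 174.1 (4.56-fold). Every J3T-1 reading was above the floor, from 2.01 to 4.51 times it, and every J3T-2 reading was 7.91 to 18.6 times its floor, so no STAT3 fold is a bound. The median log2 ratio over the 4 sets was 2.06, with an SD of 0.41. These sets share the same RNA and arrays and are not replicates.

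The STAT3 difference was uncommon on the array in size and in its repetition across probe sets. By log2 ratio, with bounds taken at their values, STAT3 ranked 74 among the 9433 measured genes towards J3T-2. Among 481 genes with at least 4 sets over both floors, 13 (2.70%) were called towards J3T-2 by every such set, and STAT3 was 1 of those 13. Ordered by their smallest log2 ratio, STAT3 was number 5 of the 481. At the level of probe sets, 7.77% of the 17391 measured sets with 1 symbol were called towards J3T-2 and 3.3% towards J3T-1, against 4 and 2 of the 16 measured member sets. The 4 were all STAT3 and the 2 were both LIFR.

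The other JAK and STAT genes did not show a difference of that size. Of 7 with a probe set, 6 were measured and 0 were at least 2-fold apart, with a median log2 ratio of 0.37. Over all measured genes 7.28% were called towards J3T-2 and 3.49% towards J3T-1, so 0 of 6 does not set this list apart. STAT2, which acts in interferon signalling, read 70.7 in J3T-1 against 126.6 (1.79-fold), and 1 of its further sets reached 2.16-fold. TYK2, the JAK kinase that also serves interferon and IL12 receptors, read 55.6 and 86.4 on its brightest set (log2 ratio 0.64) and 32.8 and 27.7 on the other measured set (-0.24), so its direction depended on the probe set. STAT4 read 40.5 and 25, a log2 ratio of -0.70. STAT5A and STAT5B, which respond to growth hormone, prolactin and interleukins, read 45.4 and 55.1 and then 81.5 and 112.1, log2 ratios of 0.28 and 0.46. STAT6 read 41.2 and 42.8.

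STAT3 lies on chromosome 9 of the dog. Among the measured genes, STAT5A and STAT5B were the nearest on 1 side of it, in the gene order of the assembly UU_Cfam_GSD_1.0. The genes around STAT3 were higher in J3T-2 as well. Of the 20 nearest measured genes, 10 on each side, all 20 had a log2 ratio above 0, with 5 called towards J3T-2 and 0 towards J3T-1. For 4 of them, above the floor in J3T-2 only, the floors set the sign, because a J3T-2 signal over 22.0 met 19.0. The 16 above both floors had log2 ratios from 0.24 to 1.88, with a median of 0.72. The median over all 20, with the 4 bounds taken at their values, was 0.67. When a gene was given the median over its probe sets in place of its brightest set, EZH1 fell below 0 and the other 19 did not. Over the whole of chromosome 9, 104 of 604 genes (17.2%) were called towards J3T-2, with a median log2 ratio of 0.57. That median ranked number 2 of 39 chromosomes, next to chromosome 10 at 0.58 over 347 genes.

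STAT3 stood above those neighbours that exceeded both floors. Its log2 ratio of 2.37 was higher than those of all 16 such genes. It lay 1.70 above the median of all 20, a factor of 3.25, with 4 lower bounds taken at their values. Those 4, among them LOC490972 at 5.3 in J3T-1 and 30.4 in J3T-2, could not be ordered against STAT3. The smallest ratio among its 4 probe sets, 1.43, still lay 0.75 above the neighbours' median. NKIRAS2 was above that smallest ratio in both of its sets, at log2 ratios of 1.88 and 1.46. Among the neighbours above both floors, NKIRAS2 was the nearest to STAT3 in size, at 42.7 and 157.6 (3.69-fold). NKIRAS2 is a Ras-like gene whose product binds the NF-kB inhibitor IkB. CNP, a myelin-associated phosphodiesterase, followed at 48.0 and 124.1 (2.59-fold). ATP6V0A1, a proton pump subunit and the nearest measured gene to STAT3 on its side, read 103.4 and 215.2 (2.08-fold) on its brightest set. Its further sets above both floors gave 2.98-fold and 2.68-fold. The log2 ratio of the former, 1.57, was also above the smallest STAT3 ratio. STAT5A and STAT5B, on the other side, were at 1.21-fold and 1.38-fold. Of the other 603 measured genes of chromosome 9, 6 had a log2 ratio at or above that of STAT3, with bounds taken at their values. The array holds no reading of DNA copy number, and the part of the regional shift in the STAT3 difference was not tested.

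**Figure D2:**
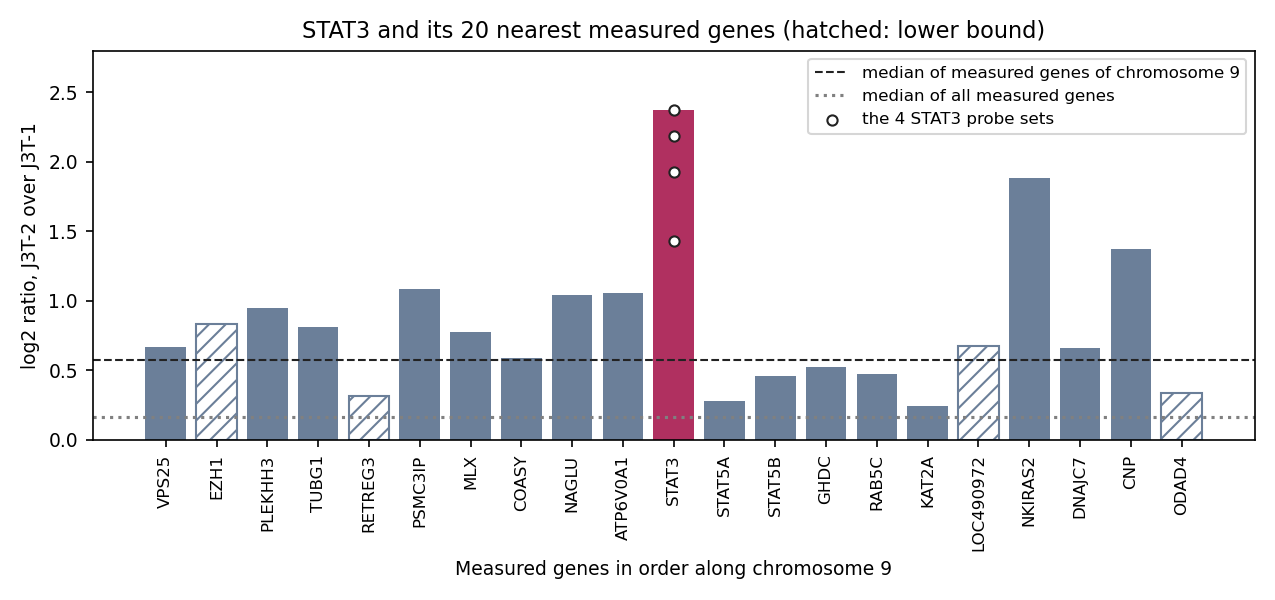
log2 ratio of MAS5 signals (J3T-2 over J3T-1) for STAT3 and the 10 nearest measured genes on each side, in their order along chromosome 9, with hatched bars for genes under the floor in J3T-1 (lower bounds) and circles for the 4 STAT3 probe sets. All 21 bars are above 0, and STAT3 at 2.37 is the tallest, against a median of 0.57 for chromosome 9 (dashed) and 0.17 for all measured genes (dotted). The sign of the hatched bars was set by the floors.

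Around the other measured members the same window of 20 genes had smaller medians. For LIFR and OSMR, which neighbour each other among the measured genes of chromosome 4, the 20 nearest measured genes had median log2 ratios of 0.16 and 0.16. These 2 windows share most of their genes. The counts of called neighbours were not smaller there, with 5 around LIFR and 6 around OSMR towards J3T-2, and 1 and 2 towards J3T-1. The highest log2 ratio in both windows was 4.10. Towards J3T-2, 3 neighbours of IL6ST, 2 of JAK2, 1 of JAK1 and 0 of CLCF1 were called. LIFR had a lower log2 ratio than all 20 of its neighbours, with any bounds taken at their values. For JAK1 on chromosome 5 the neighbours' median was 0.28, for JAK2 on chromosome 1 it was 0.02, for IL6ST on chromosome 2 it was 0.15, and for CLCF1 on chromosome 18 it was 0.24. IL6ST was above 1 of its 20 neighbours, OSMR above 4, and JAK1 and JAK2 above 6 each.

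The feedback inhibitor SOCS3 was under the floor in both subclones. SOCS3, which binds gp130 and the JAKs and is itself transcribed in response to STAT3, read 17.7 in J3T-1 and 17.2 in J3T-2 on its brighter probe set, 0.93 and 0.78 times the floors. The dimmer set read 5.3 and 0.6. A difference in SOCS3 between the subclones was therefore not detectable at this signal. SOCS3 lies on chromosome 9 as well.

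Among 15 further brakes on the pathway, 14 had a probe set, 11 were measured, and 2 of these were called towards J3T-2 and 0 towards J3T-1, beside 7.28% and 3.49% of all measured genes. SOCS5, a further SOCS-box protein, read 325.0 and 829.4 (2.55-fold), with 2.15-fold on its second set. PIAS1, a SUMO ligase that restrains STAT proteins, read 170.7 and 471.4 (2.76-fold), with 3.40-fold and 1.74-fold on its other sets. PIAS3, the family member named for its binding to STAT3, went the other way within 2-fold, at 37.3 and 23.6 (1.58-fold higher in J3T-1). SOCS2, induced by growth hormone through STAT5, read 285.3 and 205.7 (log2 ratio -0.47). The phosphatases PTPN11, PTPN2 and PTPN1 had log2 ratios of 0.06, -0.23 and 0.44. SOCS1 and CISH were under the floor on both arrays. The median log2 ratio of the measured brakes was 0.06, close to that of all genes.

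A list of genes known to respond to STAT3 in other cells held calls in both directions. Of 24 listed, 19 had a probe set and 15 were measured, with 4 called towards J3T-1, 1 called towards J3T-2 and a median log2 ratio of -0.30. Over all measured genes 3.49% were called towards J3T-1 and 7.28% towards J3T-2. Whether the counts of this list differ from these shares was not tested, and the list was chosen with earlier results of these data known. TIMP1, a metalloprotease inhibitor, read 5817.3 in J3T-1 against 2446.4 (2.38-fold). BCL2L1, which encodes the survival protein BCL-XL, read 179.9 and 67.1 (2.68-fold), but its other probe set gave 1.30-fold. CCND1, the G1 cyclin, read 1401.1 and 688.2 (2.04-fold), with 1.91-fold on its other set. JUNB, an AP-1 subunit, read 56.2 and 16.3, at least 2.55-fold. With each gene at the median over its probe sets, only TIMP1 and JUNB of these 4 stayed called.

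The gene of this list that was higher in J3T-2 was BIRC5, which encodes survivin, at 532.2 and 1123.4 (2.11-fold, with 2.88-fold on its second set). With arrays scaled to a common median, by quantiles or by loess, BIRC5 fell under 2-fold. FOS read 232.5 and 412.0, a log2 ratio of 0.83, and ICAM1, an adhesion receptor, read 311.8 and 185.6, a log2 ratio of -0.75. The survival gene MCL1 (log2 ratio 0.23), the interferon regulatory gene IRF1 (0.02), BCL6 (-0.22) and MYC (-0.26) lay closer to 0. HIF1A, the hypoxia-inducible factor, read 1924.4 and 1504.0. PIM1, BCL3, LCN2 and LRG1, all widely used as STAT3-responsive transcripts, were under the floor on both arrays. These genes also answer to other factors, and STAT3 activity was not measured.

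**Figure D3:**
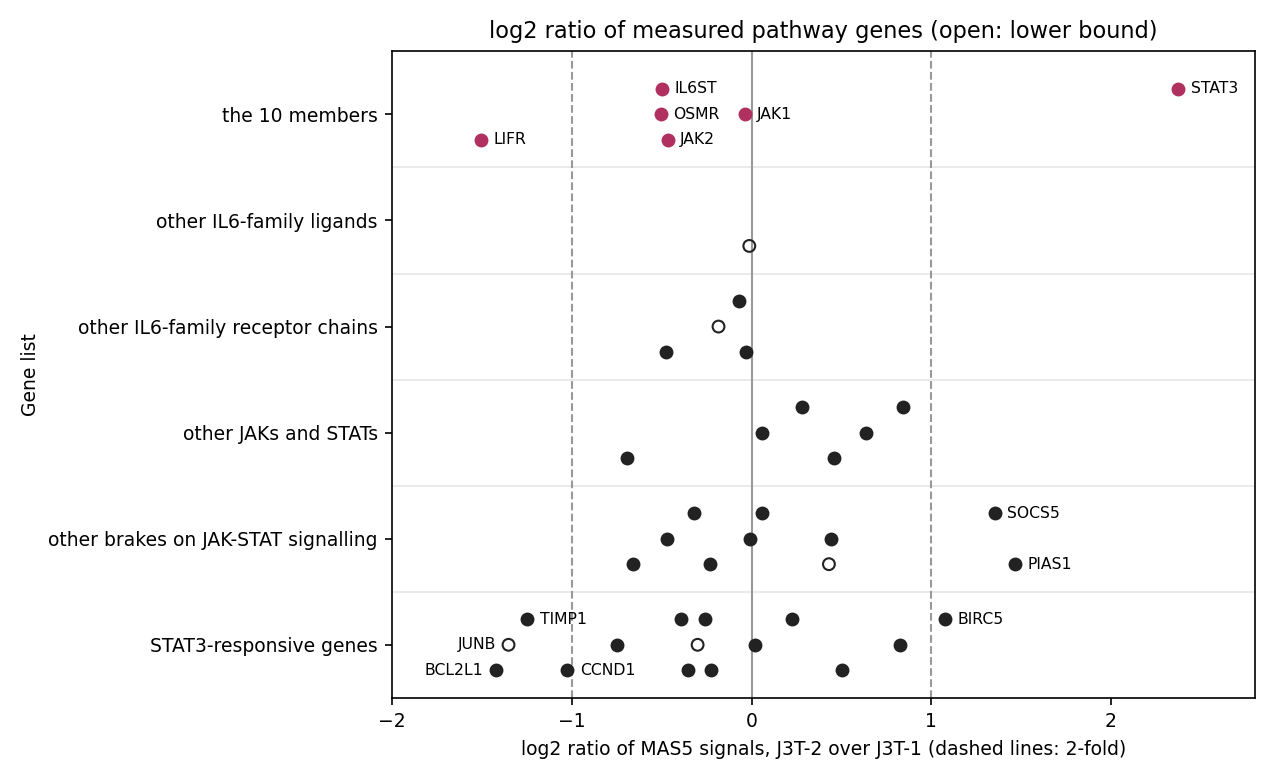
log2 ratio of MAS5 signals (J3T-2 over J3T-1) of the members and the 5 further pathway lists, 1 point per measured gene with a fold, open where the value is a lower bound, with 2-fold marked by dashed lines. STAT3 at 2.37 lies farthest to the right, the receptor and kinase members lie left of 0, and 4 of the 5 called STAT3-responsive genes lie on the J3T-1 side.

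Other pathway genes lay on the chromosomes with the highest medians towards J3T-2, which were picked for those medians, so the following values are a description. The 6 measured pathway genes on chromosomes 9 and 10 that gave a fold (STAT2, STAT5A, STAT5B, STAT6, SOCS5 and BIRC5) all had a log2 ratio above 0. Their median was 0.65, although STAT6 at 0.05 was under the 0.17 of all genes. SOCS7, also measured on chromosome 9, gave no fold and had the lower signal in J3T-2, at 20.5 in J3T-1 and 4.7 in J3T-2. The medians of all measured genes were 0.57 for chromosome 9 and 0.58 for chromosome 10. Of the 30 pathway genes with a fold on other chromosomes, 9 had a log2 ratio above 0, and their median was -0.23. PIAS1, on chromosome 30, was the only pathway gene outside chromosomes 9 and 10 that was at least 2-fold higher in J3T-2. Of 7 glial markers with a probe set, 4 were measured. Of these 4, 3 (SOX2, SLC1A3 and FABP7) were called towards J3T-2, beside 7.28% of all measured genes, and NES was 1.25-fold higher in J3T-2. GFAP, S100B and AQP4 were under both floors. The 7 signals summed to 1261 in J3T-1 and to 3765 in J3T-2, most of it from SLC1A3 and SOX2. The 5 fibroblast markers summed to 7622 and 8966, and 1 of the 4 measured was called: COL1A1, 8.12-fold higher in J3T-2. COL1A2 was 1.71-fold and DCN 1.37-fold higher in J3T-2, LUM was 1.61-fold higher in J3T-1, and PDGFRB was under both floors. The 6 endothelial markers summed to 81.6 and 72.5, with CDH5 at 36.8 and 26.5, VWF at 21.0 and 22.8, and PECAM1, KDR, TEK and CLDN5 under both floors. The part of these patterns in the STAT3 and LIFR differences was not tested.

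The directions of the 6 members above the floor on both arrays held across the processing settings tried. All settings reprocess the same 2 arrays, and the 5 JAK1 probe sets fell on both sides of 0. STAT3 had a log2 ratio between 1.92 and 2.37 over all 9 settings, and it was the only member called higher in J3T-2 in each of them. LIFR lay between -1.72 and -1.05 in the 8 settings that measured it. JAK1 ranged from -0.25 to -0.04, JAK2 from -0.68 to -0.13, OSMR from -0.72 to -0.12 and IL6ST, with 7 settings, from -0.71 to -0.38. Over all genes, the share of calls that were higher in J3T-2 was 67.6% with the signals as deposited, 47.0% with a common array median, 48.3% under quantile normalization and 48.6% under loess.

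**Figure D4:**
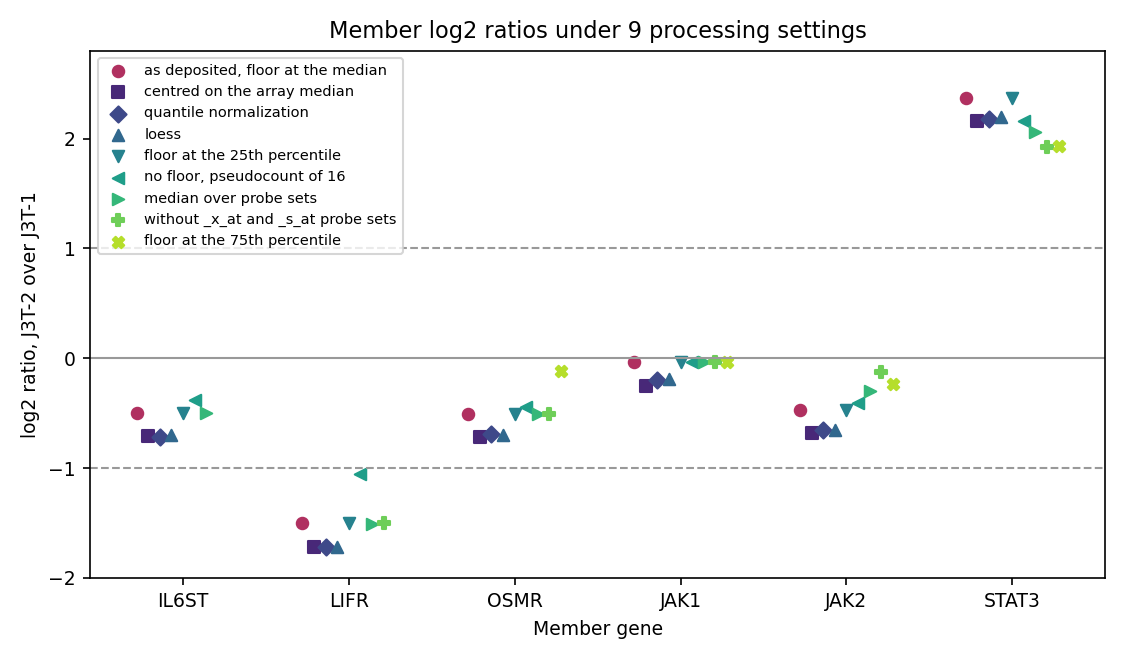
log2 ratio (J3T-2 over J3T-1) of the 6 members above the floor on both arrays under 9 processing settings, 1 marker per setting, with 2-fold marked by dashed lines. STAT3 stays between 1.92 and 2.37 and LIFR between -1.72 and -1.05, and no marker of the other 4 genes reaches 2-fold.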

How the data were processed

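The deposited values are MAS5 signal intensities, 1 per probe set and array, made by the authors with MAS5 per the submitters' processing notes. Neither the version of MAS5, the scaling target nor present and absent calls are given in those notes. Labelling started from 250 ng of total RNA per the labels' protocols. Of 43035 probe sets, the 111 controls were left out.

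Genes were named from the array annotation through probe sets with 1 symbol. Signals under the median of each array were set to it before log2 ratios of J3T-2 over J3T-1 were taken, without further scaling. A ratio with 1 array at the floor is a lower bound where it points to the array above the floor; otherwise no fold is given (CLCF1 and SOCS7). Named were all 10 members with every probe set, and, of each list, the genes at least 2-fold apart and the brightest; other list genes and the neighbours of STAT3 were named after their values were seen. The members and lists were chosen with earlier results of these data known. Gene order came from UU_Cfam_GSD_1.0, by symbol, for 9426 measured genes. Values were recomputed under 8 other settings. Python 3.11.15 ran the calculations, with pandas 2.3.3, numpy 2.4.6, statsmodels 0.14.6 and matplotlib 3.10.9. The number of arrays limits the precision.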

Additional observations from a re-analysis of the deposited data

How the results depend on the processing

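The 8 alternatives scaled the arrays to a common median, by quantiles or by loess (span 0.3), put the floor at the 25th or at the 75th percentile, used a pseudocount of 16 in its place, took each gene's median probe set, or dropped sets with an _x_at or _s_at suffix. Values were called moved where they shifted by more than the probe set SD of 0.26, and counts where they changed by over 1.5 times. With the floor at the 25th percentile 2 members were called towards J3T-1 (LIF joined LIFR, as a lower bound), and with it at the 75th there were 0. The members' median log2 ratio was -0.079 with the floor at the 75th percentile (4 genes measured) and -0.083 without the suffixed sets (6 measured). Pathway genes called towards J3T-1 numbered 4, but 8 with the 25th percentile as floor, 2 with the 75th and 2 with the median over probe sets. Over all genes, the 687 higher in J3T-2 became 425 with a common array median, 437 by quantiles, 438 by loess, 1510 with the 25th percentile as floor and 264 with the 75th, and the 329 higher in J3T-1 became 869 and 121 under those floors. A floor changes how many genes are measured (13387 and 5236 against 9433). The cause of the other changes was not tested. No called member reversed. No paired analysis was possible because each subclone has 1 array and the labels carry no replicate numbers. Signal near background limits what can be said of IL6, LIF, CLCF1, SOCS3 and of LIFR in J3T-2.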
